A study of Mus musculus with 4 samples.

Results

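The transcription factors that steer CD4 T cells into helper lineages were examined in sanroque and wild type mice. The genes were Tbx21, Eomes, Gata3, Rora, Ahr, Runx1, Runx2, Runx3 and Prdm1, and every probe set annotated to 1 of them alone was taken, which gave 16 of the 22690 probe sets on the array for 8 of the 9 genes. No probe set was annotated to Runx2, so it is not analysed here. RNA of CD4 cells was hybridised to 4 Affymetrix MOE430A arrays, 2 of san/san and 2 of +/+ mice. The san/san mice are homozygous for sanroque, a recessive mutation made in male C57BL/6 mice with the chemical mutagen ENU and found in a screen for antinuclear autoantibodies; the mutated gene is Rc3h1, the gene of Roquin-1, a protein that binds mRNAs and speeds their decay, for which no probe set could be named. The +/+ mice are wild type, and neither genotype was given a treatment that the labels name. The labels give no age of the mice used and do not state whether each array stands for its own mouse; every p-value therefore rests on a spread between arrays that may be purely technical. The header of wild type array 2 names CBA, which nothing explains, so strain and mutation cannot be told apart in the comparison with that array.

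Helper T cells take on distinct cytokine programmes under the control of such lineage factors. T-bet, the product of Tbx21, directs the Th1 programme of interferon gamma. Gata3 directs the Th2 programme of interleukins 4, 5 and 13, and RORα, encoded by Rora, and the aryl hydrocarbon receptor act in Th17 cells. Eomes, Runx1, Runx3 and Blimp-1, the product of Prdm1, modify these programmes and also act in CD8 T cells, NK cells, regulatory T cells or plasma cells.

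The deposited value is a signal per probe set on a linear scale without a unit, scaled so that the trimmed mean of each array lay between 99.59 and 99.97. The median signals were less alike, at 40.4 and 32.3 in sanroque and 36.7 and 30.8 in wild type. Sanroque had the higher median at each array number. Array 1 of each genotype was hybridised and scanned on one day (day 1) and array 2 of each on another (day 2). Differences were taken on log2(signal + 6) with limma, sanroque minus wild type, over the 13579 probe sets whose mean signal over the 4 arrays reached 21.3, and p-values were adjusted over all of them by the Benjamini-Hochberg method with a threshold of 0.05. In that test 144 probe sets passed, 1.06% of those tested, and with the day as a block 852 passed, or 6.27%. The block leaves 1 residual degree of freedom per probe set, against 2 without it. Markers of CD4 T cells were present, and none of the 7 measured passed the test, with the block or without it. Cd5 (-0.38, adjusted p = 0.488) and Cd3g (-0.10, adjusted p = 0.926) had the largest changes among those whose genotypes did not overlap. Cd4 read 585.9 and 570.2 in sanroque and 533.3 and 613.5 in wild type, and the 7 summed to 7821.8 and 8689.7 in sanroque and to 8472.9 and 9212.5 in wild type.

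No probe set of the lineage factors passed limma in the comparison of sanroque with wild type. Of the 16, 14 reached the filter and 0 of these 14 were called, while 6 had an unadjusted p under 0.05, a level that 9.89% of all tested probe sets reached. With the day as a block 4 of the 14 passed: Eomes, Rora and Ahr were higher in sanroque, by 1 probe set each (3.59% of all tested were called higher), and Runx3 was lower (2.68% were called lower). Each of these 4 calls depends on the filter: with the block and no filter none of the 4 passed, with adjusted p from 0.0608 (Eomes) to 0.185 (Ahr). Without wild type array 2, the array whose header names CBA, and without the block, the 4 changes were 1.14 for Eomes, 0.78 for Rora, 0.87 for Ahr and -1.51 for Runx3, and none passed. The 2 sanroque arrays did not overlap with the 2 wild type arrays in 10 of the 14, compared with 38.7% of all tested probe sets. In 6 of them both sanroque arrays read above both wild type arrays (21.0% of all tested), and in 4 both read below (17.7%).

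The difference had the same sign on both days in 13 of the 14 probe sets, against 61.9% of all tested. The median size of the change, regardless of sign, was 0.71 on the log2 scale in the 14 and 0.20 over all tested. The factors were dim, with signals of 1.8 to 140 and a median of 51.3 for the means of the 14, against 95.4 over the tested probe sets. Among the 7645 tested probe sets with means in the range of the 14, from 22.9 to 124, the genotypes did not overlap in 37.1%, the sign was the same on both days in 60.7%, the median size was 0.22, and 5.15% passed with the block. A probe set can reach the filter through the genotype in which it is brighter, so these counts describe the 14 and are not a test of them. Of the 14, 5 were of Runx1, 2 of Rora and 2 of Ahr, and probe sets of the same gene are not independent. In RNA from many cells, fewer cells of a type and less RNA per cell cannot be told apart.

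**Figure D1:**
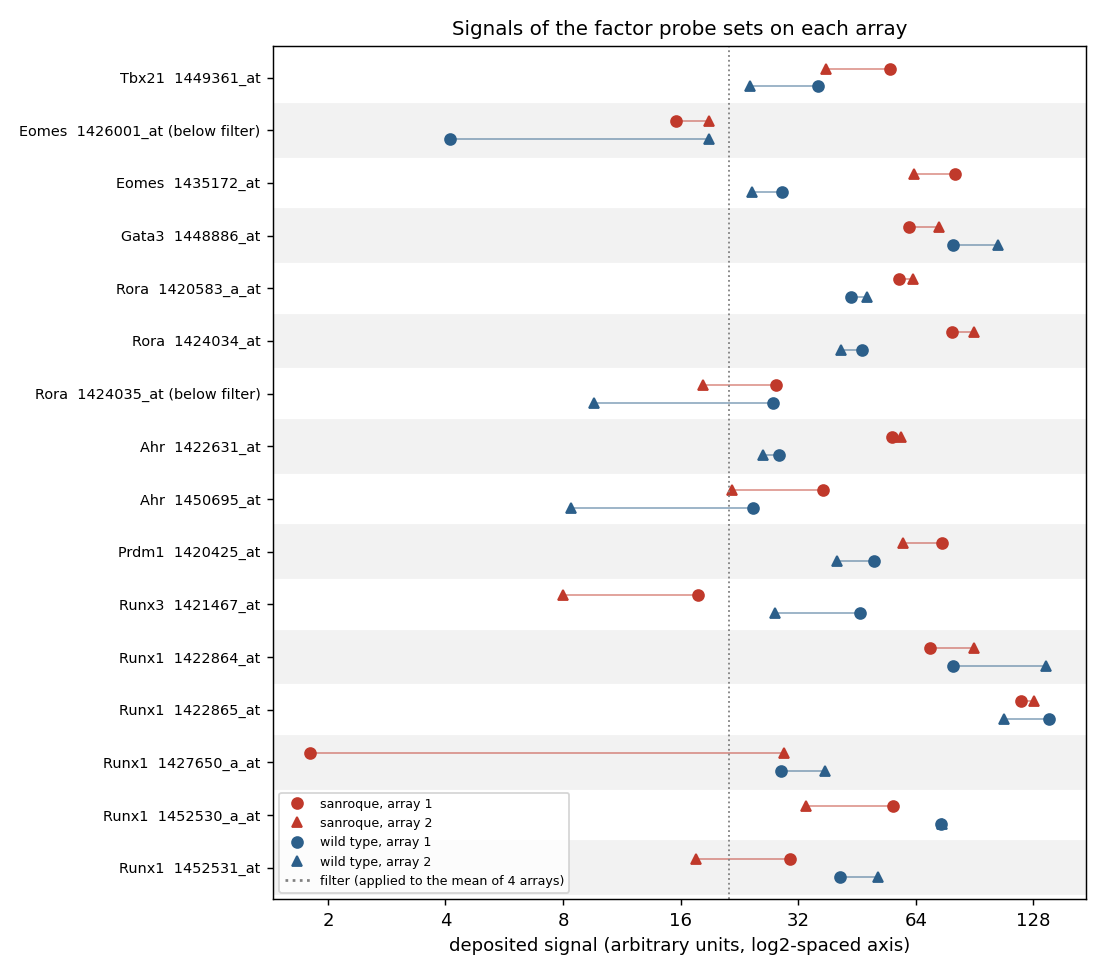
Deposited signal of each of the 16 probe sets on each array, on a log2-spaced axis. Red marks sanroque and blue wild type, circles array 1 and triangles array 2, and the dotted line is the filter of 21.3, which was applied to the mean of the 4 arrays. The red and blue pairs stand farthest apart for Eomes 1435172_at, Ahr 1422631_at, Rora 1424034_at and Runx3 1421467_at.

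The T-box factors Eomes and Tbx21 both had positive changes. Eomes, a factor of cytotoxic and memory T cells and of NK cells, was measured by 2 probe sets. Probe set 1435172_at read 80.7 and 63.4 in sanroque, against 29.1 and 24.3 in wild type. Every sanroque value was above every wild type value. The log2 fold change was 1.25 with a standard error of 0.285 (95% interval 0.62 to 1.88, limma adjusted p = 0.0782), the change nearest to the threshold among the factors. It was 1.30 on day 1 and 1.20 on day 2, and with the day as a block it passed (adjusted p = 0.00095), but not with the block and no filter (0.0608). It also passed with each array centred on its median (log2 fold change 1.16, adjusted p = 0.0301) and without wild type array 1 (adjusted p = 0.0244), and under the other settings adjusted p ran up to 0.434, without sanroque array 1.

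The other Eomes probe set, 1426001_at, did not show that gap. It read 15.6 and 18.9 in sanroque and 4.1 and 18.9 in wild type, so the array 2 values were equal and the genotypes overlapped. Its mean of 14.4 lay below the filter. In the fit without a filter its log2 fold change was 0.55 (95% interval -0.67 to 1.76, limma adjusted p = 0.895); day 1 gave 1.10 and day 2 gave 0.00. The rise of Eomes under the block therefore rests on 1 probe set of 2, and the interval of the other includes both 0 and the value of the first.

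Tbx21, the Th1 lineage factor, read 55.0 and 37.7 in sanroque and 35.9 and 24.1 in wild type. Both sanroque arrays were above both wild type arrays, but the lower sanroque value and the higher wild type value were close. This gave a log2 fold change of 0.54 (standard error 0.337, 95% interval -0.20 to 1.28, limma adjusted p = 0.681), and the same 0.54 was found within each day. It did not pass with the block either (adjusted p = 0.271). The change was 0.30 without sanroque array 1 and 0.78 without sanroque array 2.

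Markers of CD8 T and NK cells, in which Eomes and T-bet are also active, were read beside these values. Of 12 listed genes 11 were measured, 1 rose and none fell. Only 5 of the 11 changes were positive, with a median of -0.02, and the perforin gene Prf1 had -0.41 (limma adjusted p = 0.603). The 11 signals summed to 808.9 and 883.5 in sanroque and to 760.0 and 693.8 in wild type, and none was listed at 0 on any array. Gzmk, a granzyme gene, rose by 1.32 on the log2 scale (limma adjusted p = 0.0462), with 100.3 and 97.3 in sanroque and 45.6 and 28.3 in wild type. Cd8a, which encodes a coreceptor chain of CD8 T cells, read 68.3 and 54.5 in sanroque and 50.1 and 46.6 in wild type (log2 fold change 0.30, adjusted p = 0.789). With the block 3 of the 11 were called higher and none lower: Gzmk, the cytotoxic granule gene Nkg7 (0.79, adjusted p = 0.00519 with the block) and the receptor gene Klrg1 (0.66, adjusted p = 0.0437 with the block), the last 2 named after their values were seen. The part of such cells in the Eomes and Tbx21 values was not tested.

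The Th1 programme list, of receptors, cytokines and signalling genes of Th1 cells, had 12 of 18 genes measured. Of these 2 rose, none fell and 10 did not pass, with a median log2 fold change of 0.53 beside 0.01 over all tested probe sets. Cxcr3, a chemokine receptor of Th1 cells, read 305.3 and 368.6 in sanroque and 169.1 and 145.4 in wild type and rose by 1.07 (limma adjusted p = 0.0231). The chemokine gene Ccl5 read 417.2 and 470.6 in sanroque and 188.6 and 259.0 in wild type and rose by 0.98 (adjusted p = 0.0457). Ifng, which encodes interferon gamma, had lower signals in sanroque, 22.5 and 19.9 against 37.9 and 56.2 in wild type, and its change of -0.94 did not pass (adjusted p = 0.38, and 0.0532 with the block). With the day as a block 5 of the 12 were called higher, Cxcr3, Ccl5, Stat4 (1.09), Il2rb (0.94) and Tnf (0.68). Called lower was Il18r1 alone (-0.54, adjusted p = 0.0326 with the block), although its genotypes overlapped. Stat4, Il2rb, Tnf and Il18r1 were named after their values were seen.

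Gata3, the Th2 lineage factor that CD4 T cells also need for their development, read 61.4 and 73.5 in sanroque and 79.9 and 104.2 in wild type. Both sanroque arrays were below both wild type arrays, by a small margin. The log2 fold change was -0.41 (standard error 0.23, 95% interval -0.92 to 0.10, limma adjusted p = 0.63), which split into -0.35 on day 1 and -0.47 on day 2. It did not pass with the block (adjusted p = 0.236), and it was -0.23 without wild type array 2 and -0.59 without wild type array 1. Of the 14 genes on the Th2 programme list 4 were measured, too few to describe the programme. None passed. The transcriptional repressor Gfi1 had 0.97 (adjusted p = 0.394) and the chemokine receptor Ccr4 0.87 (adjusted p = 0.619), both with every sanroque array above every wild type array. The Th2 cytokine genes Il4, Il5 and Il13 did not reach the filter. Il4 came nearest, with 30.6 and 25.9 in sanroque and 8.2 and 18.4 in wild type; in the fit without a filter its change was 0.88 (95% interval -0.18 to 1.93, limma adjusted p = 0.724).

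Rora, which encodes the nuclear receptor RORα of Th17 cells and innate lymphoid cells, was measured by 3 probe sets, all with positive changes of unequal size. Probe set 1424034_at read 79.3 and 90.1 in sanroque, against 46.7 and 41.2 in wild type. The genotypes were apart on both days, by 0.69 on day 1 and 1.03 on day 2. The log2 fold change was 0.86 (standard error 0.237, 95% interval 0.34 to 1.38, limma adjusted p = 0.161), and it passed with the day as a block (adjusted p = 0.00994) but not with the block and no filter (0.126). Probe set 1420583_a_at read 58.1 and 62.9 in sanroque and 43.7 and 47.9 in wild type. These genotypes did not overlap either, and the log2 fold change of 0.36 (95% interval -0.19 to 0.91) passed neither without the block (adjusted p = 0.729) nor with it (0.413).

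The third Rora probe set, 1424035_at, had a mean of 20.9, just under the filter. It read 28.1 and 18.3 in sanroque and 27.5 and 9.6 in wild type, so the genotypes overlapped. Without the filter its log2 fold change was 0.33 (95% interval -0.85 to 1.51, limma adjusted p = 0.949); day 1 gave 0.03 and day 2 gave 0.64. For the 2 probe sets past the filter the changes differed by 0.50, beside a median of 0.22 over the 1901 genes with that many tested probe sets, and 17% of those genes had a range at least as wide.

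Ahr encodes the aryl hydrocarbon receptor, a ligand-activated factor that promotes interleukin 22 in Th17 cells. Probe set 1422631_at read 55.5 and 58.6 in sanroque, against 28.6 and 26.0 in wild type. Replicates lay close together and the genotypes far apart, with a log2 fold change of 0.92 (standard error 0.291, 95% interval 0.28 to 1.56), of 0.83 on day 1 and 1.01 on day 2. It did not pass (limma adjusted p = 0.254) but did with the block (0.0256), though not with the block and no filter (0.185). Probe set 1450695_at was dimmer and read 37.0 and 21.7 in sanroque and 24.5 and 8.4 in wild type. Array 1 exceeded array 2 in both genotypes, and the values overlapped. Its log2 fold change was 0.72 (95% interval -0.42 to 1.86, adjusted p = 0.743, and 0.297 with the block), and it was 0.18 without wild type array 2 and 0.40 without sanroque array 1. The 2 Ahr probe sets differed by 0.20 in their changes, close to the median of 0.22 for genes with that many.

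Arnt, the partner with which the aryl hydrocarbon receptor binds DNA, had a log2 fold change of 0.29 (limma adjusted p = 0.793), with 80.8 and 59.8 in sanroque and 56.5 and 54.9 in wild type. Of 8 listed Ahr targets only Tiparp and Nfe2l2 were measured, and neither passed. Tiparp, named after its values were seen, had 0.00 and Nfe2l2, which encodes a regulator of antioxidant genes, had 0.16 (adjusted p = 0.874). The Th17 programme list had 8 of 14 genes measured, of which 1 rose, none fell and 7 did not pass, with a median of 0.38. The gene that rose was Il21 (1.82, adjusted p = 0.0307), a cytokine that follicular helper cells make as well. Il17a did not reach the filter, and no probe set named Il17f or Il22 alone. With the block 3 of the 8 were called higher, Il21, Batf (0.77) and Stat3 (0.48). Called lower was Sgk1 alone (-0.74, adjusted p = 0.00127 with the block). Batf, Stat3 and Sgk1 were named after their values were seen.

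**Figure D2:**
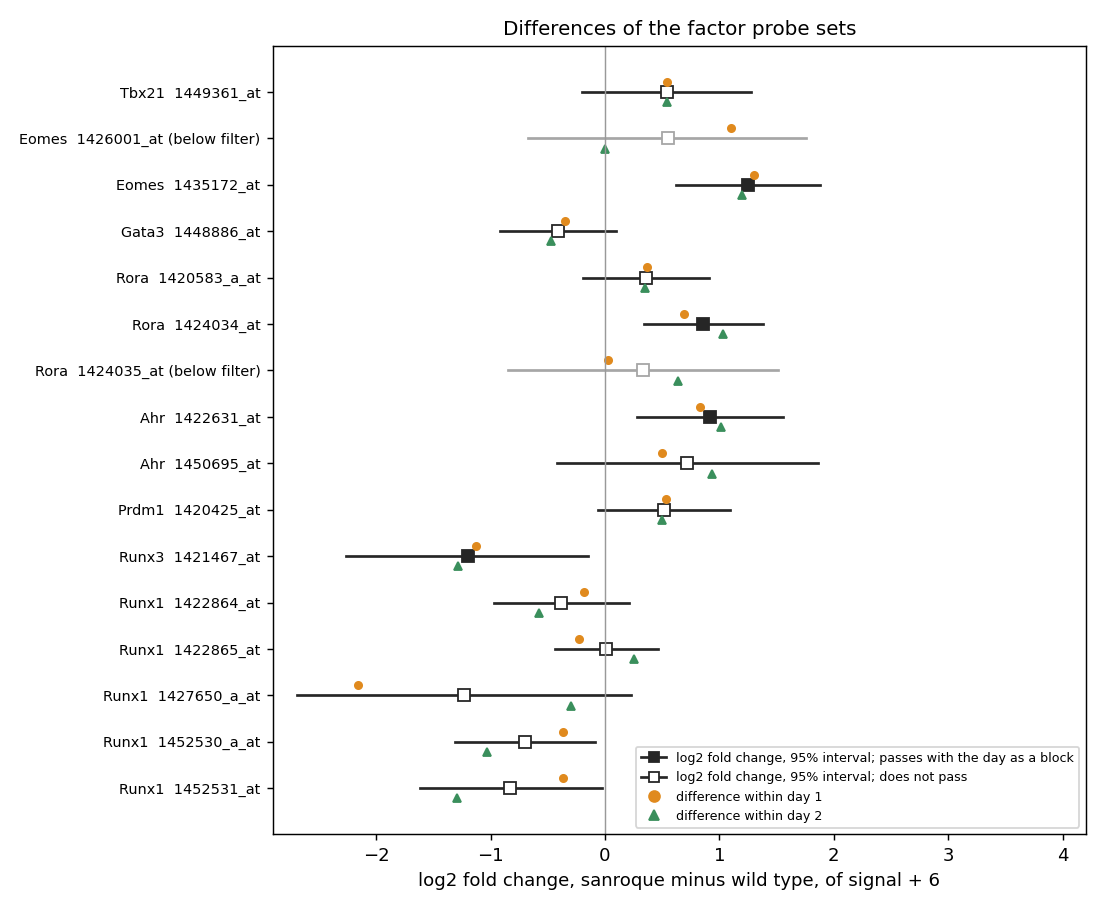
Log2 fold change, sanroque minus wild type, of signal + 6 for each of the 16 probe sets, with its 95% interval from limma; orange circles and green triangles are the differences within day 1 and day 2. Filled squares mark the 4 probe sets that passed with the day as a block, grey the 2 below the filter, whose values come from the fit without it; the 5 Runx1 probe sets spread from -1.23 to 0.01.

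RUNX factors bind DNA together with the partner protein CBFβ, encoded by Cbfb, and each RUNX gene can be transcribed from an upstream and a downstream promoter. The RefSeq promoter windows of build GRCm38.p6 run from 250 bases before to 50 bases after a start. The lineage factors had 10 windows, with 2 each for Runx1 and Runx3 and none for Ahr. The RUNX letters TGTGGT (or ACCACA on the other strand) occurred in 3 of these 10 and in 16.8% of all 32851 windows. The 3 were the window of the upstream start of Runx1, the window of the upstream start of Runx3 and the window of Runx2. They are shown because all 3 hold the same run of 18 bases with a pair of RUNX letters in it, spaced by 2 bases, and the capitals mark these letters.
Runx1, chr16:92826025-92826054, minus strand: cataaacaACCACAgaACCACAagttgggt
Runx2, chr17:44814583-44814612, minus strand: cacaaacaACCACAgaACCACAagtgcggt
Runx3, chr4:135120503-135120532, plus strand: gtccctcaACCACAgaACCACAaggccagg
The run begins 27 bases after the start in Runx1, 22 bases after it in Runx2 and 136 bases before it in Runx3. It occurred in 4 of the 32851 windows (0.0122%), the fourth being that of Gm16225 on the other strand over the same bases as in Runx3. The run was picked as the longest that the 3 windows share, so its presence in them was fixed in advance. A pair of RUNX letters spaced by 2 bases occurred in 7 windows, of 7 genes (0.0213%). The 250 bases before the upstream start of Runx3, chr4:135120395-135120644 on the plus strand, are given because Runx3 was the factor called lower with the block.
Runx3 upstream promoter: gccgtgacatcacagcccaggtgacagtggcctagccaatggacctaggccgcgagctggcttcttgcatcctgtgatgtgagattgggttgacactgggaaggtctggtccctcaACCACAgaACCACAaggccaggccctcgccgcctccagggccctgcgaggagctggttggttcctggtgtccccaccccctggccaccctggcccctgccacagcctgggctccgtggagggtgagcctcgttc
The GATA letters AGATAA and the T-box letters TCACACC, searched on both strands, were in none of the 10 windows and in 11.2% and 3.98% of all windows. The ROR letters AGGTCA were in the window of Runx2 alone (16.3% of all windows), and the AHR letters GCGTG in 3 windows, of Prdm1, Rora and Runx1 (32.4% of all). The arrays do not tell the 2 promoters of a gene apart.

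Runx3, which silences Cd4 in CD8 T cells and acts with T-bet in Th1 cells, was measured by probe set 1421467_at. It read 17.7 and 8.0 in sanroque, against 46.0 and 27.9 in wild type. Both sanroque arrays were below both wild type arrays, and below the filter value of 21.3 that the mean of 24.9 passed. Its log2 fold change was -1.20 (standard error 0.478, 95% interval -2.26 to -0.15, limma adjusted p = 0.422). It was -1.13 on day 1 and -1.28 on day 2, and it passed with the day as a block (adjusted p = 0.042) but not with the block and no filter (0.172). At such low signals the size depends on the constant added, with -1.51 at a pseudocount of 1 and -0.72 at 24.

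Runx1, which acts in thymocytes and in resting CD4 T cells, was measured by 5 probe sets that disagreed. Probe set 1422865_at, the brightest, read 118.7 and 128.7 in sanroque and 140.0 and 107.4 in wild type. The genotypes overlapped fully, the log2 fold change was 0.01 (95% interval -0.44 to 0.46, limma adjusted p = 0.995), and its sign differed between day 1 (-0.23) and day 2 (0.25). Probe set 1422864_at, annotated to the same transcript record, read 69.6 and 90.3 in sanroque and 79.9 and 137.9 in wild type. It overlapped too, and its change of -0.38 (adjusted p = 0.732) was -0.01 without wild type array 2.

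The 2 Runx1 probe sets annotated to another record were lower in both sanroque arrays than in both wild type arrays. Probe set 1452530_a_at read 56.1 and 33.6 in sanroque, against 74.2 and 74.6 in wild type. Its log2 fold change was -0.70 (standard error 0.277, 95% interval -1.31 to -0.09, limma adjusted p = 0.422); day 1 gave -0.37 and day 2 gave -1.03. Probe set 1452531_at read 30.4 and 17.5 in sanroque, against 40.9 and 51.3 in wild type. Its log2 fold change was -0.83 (standard error 0.358, 95% interval -1.62 to -0.03, adjusted p = 0.481); day 1 gave -0.37 and day 2 gave -1.29. Neither passed with the block (adjusted p = 0.0589 and 0.0987).

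The last Runx1 probe set, 1427650_a_at, had the largest change of the 5 and the widest spread. It read 1.8 and 29.4 in sanroque and 28.9 and 37.5 in wild type. The value of sanroque array 1 was the lowest of all 16 probe sets on any array, while sanroque array 2 lay between the wild type arrays. The log2 fold change of -1.23 (95% interval -2.69 to 0.23, limma adjusted p = 0.611) was -0.14 without sanroque array 1. Across the 5 probe sets the changes ranged over 1.24, beside a median range of 0.64 over the 89 genes with 5 tested probe sets, of which 7.87% had a range at least as wide. The annotation does not say which Runx1 transcripts each probe set covers, so the part of transcript choice in this spread was not tested.

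Cbfb read 748.1 and 1130.6 in sanroque and 774.3 and 936.5 in wild type, with a log2 fold change of 0.11 (standard error 0.218, limma adjusted p = 0.941). None of 8 measured genes of 12 on the list of partners of these factors passed, and their median was 0.02. Zfpm1, which encodes the GATA partner FOG1, had 0.53 (adjusted p = 0.481) and Tle5, a gene of the Groucho corepressor family, had -0.41 (adjusted p = 0.567). Of 11 listed RUNX targets 7 were measured and none passed, with a median of 0.13. The list was not split into genes that RUNX factors raise and genes that they silence, so the median does not measure RUNX activity. Cd4 had 0.01 (adjusted p = 0.991). Itgae, which encodes the integrin chain CD103 of regulatory and tissue-resident T cells, read 50.1 and 60 in sanroque and 22.9 and 30 in wild type (0.92, adjusted p = 0.303, and 0.0303 with the block). The perforin gene Prf1 had -0.41 (adjusted p = 0.603).

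Prdm1 encodes Blimp-1, a repressor that opposes Bcl6 in T cells and drives plasma cell formation in B cells. Its probe set 1420425_at read 74.8 and 59.5 in sanroque, against 50 and 40.2 in wild type. Both sanroque arrays were above both wild type arrays, with array 1 brighter than array 2 in each genotype. Its log2 fold change was 0.52 (standard error 0.259, 95% interval -0.06 to 1.09, limma adjusted p = 0.569); day 1 gave 0.53 and day 2 gave 0.50. It did not pass with the block (adjusted p = 0.18). Of 9 listed genes that Blimp-1 is known to repress, 6 were measured and none passed, and their median was 0.32. Bcl6 read 59.9 and 84.3 in sanroque and 49.7 and 33.7 in wild type, with a change of 0.71 in the same direction as Prdm1 (adjusted p = 0.423). Id3, which encodes an inhibitor of E proteins, had 0.63 (adjusted p = 0.291, and 0.0264 with the block). With the block 1 of the 6 was called higher, Id3, and 1 lower, Myc (-0.51, adjusted p = 0.0441 with the block), named after its values were seen.

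Plasma cells and regulatory T cells also express Prdm1, and regulatory T cells Gata3 and Rora. Of 6 plasma cell markers 3 were measured and none passed, with sums of 1024.0 and 938.1 in sanroque and of 938.6 and 1064.0 in wild type. The immunoglobulin joining chain gene Jchain had -0.39 (limma adjusted p = 0.49) and Irf4 0.28 (adjusted p = 0.786). Of 10 regulatory T cell markers 8 were measured, 2 rose and none fell, and with the block 4 were called higher. They summed to 2145.3 and 2233.0 in sanroque and to 1425.0 and 1368.7 in wild type, so the sums did not overlap. Nrp1 rose by 1.21 (adjusted p = 0.0246) and Izumo1r, a folate receptor family gene, by 1.00 (adjusted p = 0.0172). Izumo1r was the brightest of the 8 and weighed most in the sums, with means of 741 in sanroque and 367 in wild type. Of the 8 changes 7 were positive, and Tnfrsf18, named after its values were seen, had -0.02 (adjusted p = 0.985). Foxp3 had 0.64 and did not pass (adjusted p = 0.468). None of these markers was listed at 0, and their part in the Prdm1, Gata3 and Rora values was not tested.

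**Figure D3:**
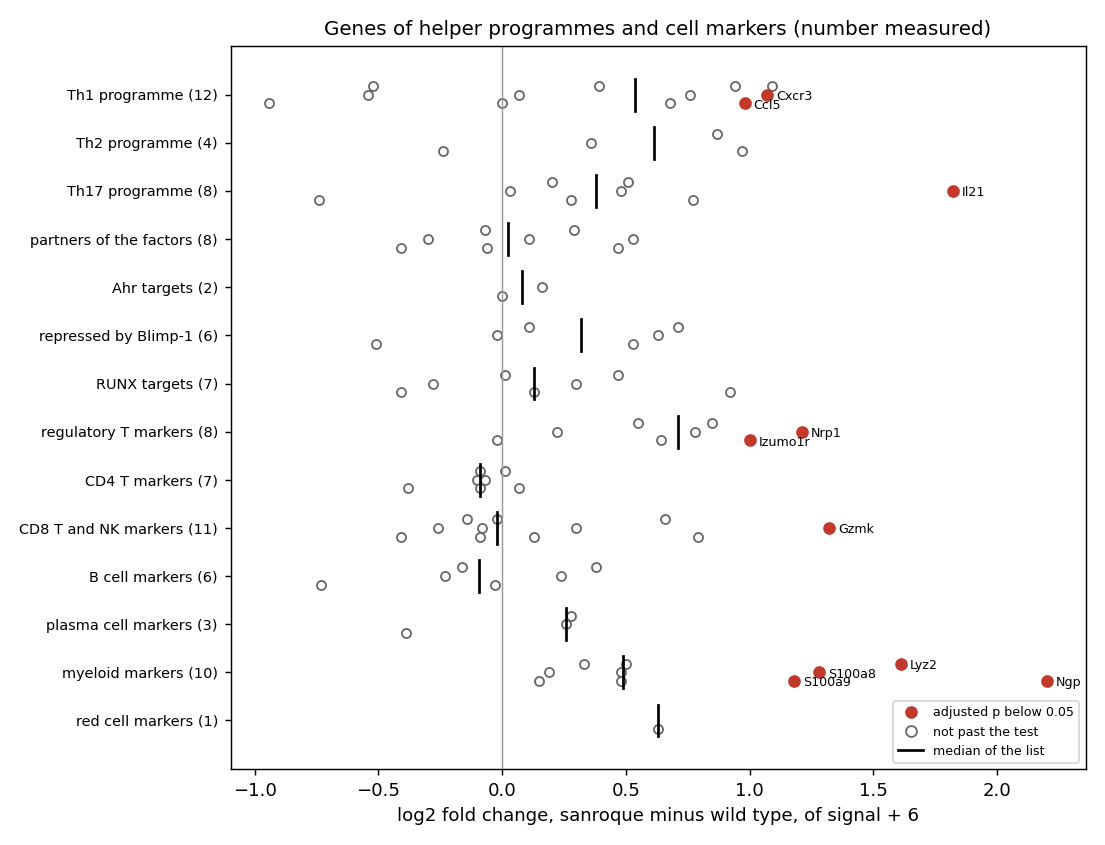
Log2 fold change, sanroque minus wild type, of signal + 6 for the measured genes of each list, each gene by the brightest of its tested probe sets; filled red points passed the test and black bars are list medians. The CD4 T cell markers sit near 0, while the medians of the Th1 and regulatory T cell lists are 0.53 and 0.71.

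Other cell types were read in the same way. Of 10 measured myeloid markers of 11 listed, 4 rose and none fell, 5 were called higher with the block, and they summed to 2700.5 and 2704.5 in sanroque and to 1277.3 and 1340.1 in wild type. Ngp, a neutrophil granule gene, rose by 2.20 (limma adjusted p = 0.000329), the lysozyme gene Lyz2 by 1.61 (adjusted p = 0.000797), and the calprotectin genes S100a8 and S100a9 by 1.28 (adjusted p = 0.00716) and 1.18 (adjusted p = 0.00957). No B cell marker of 6 measured passed, with Cr2 at -0.73 (adjusted p = 0.216, but 0.0127 with the block, the only B cell marker it called) and Cd22 at 0.38 (adjusted p = 0.516). The red cell gene Alas2 had 0.63 (adjusted p = 0.152, and 0.00383 with the block). Runx1 and Ahr are also transcribed in myeloid cells, and the part of those cells in their values was not tested.

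**Figure D4:**
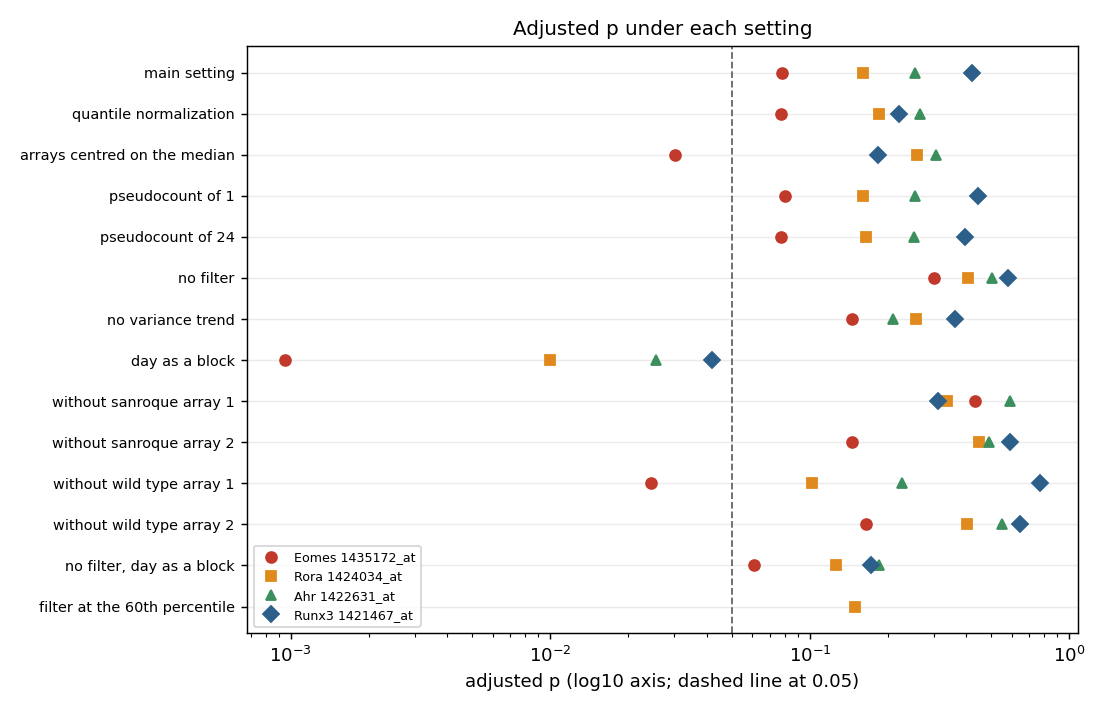
Adjusted p, on a log10 axis, of the 4 probe sets that passed with the day as a block, under each setting tried; points left of the dashed line at 0.05 passed. Among the settings that kept all 4 arrays, Eomes passed with the block and with median centring, and Rora, Ahr and Runx3 with the block alone. Without wild type array 1 the only wild type array left is the one whose header names CBA. Of these 4 probe sets only that of Rora was bright enough for the filter at the 60th percentile.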

How the data were processed

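Signals were analysed as the authors deposited them: intensity values on a linear scale, 1 per probe set and array, never negative. The chip type was read per the file headers. How probes were summarised and background removed is not stated there or in the labels, and detection calls were not used here. Genotype and replicate number came from the sample titles. The numbers mark shared hybridisation and scan days per the file headers, so they pair the arrays. Arrays that share a number deviated together (r = 0.392 across probe sets). With 2 arrays per genotype the deviations of array 2 mirror those of array 1, so this is 1 contrast. Array 1 had the higher median signal in both genotypes, and the part of such an offset in this value was not tested.

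Symbols came from the platform annotation, matched by gene identifier to a RefSeq table: 20393 probe sets had 1 symbol, 691 several, and 1555 apart from 64 controls none. Controls and probe sets with a mean below the 40th percentile were left out. The pseudocount of 6 is the rounded 20th percentile. Tests were two-sided, with limma 3.58.1 (lmFit, eBayes with a variance trend) in R 4.3.3, on all 4 arrays and without covariates. They were checked on simulated data, where most changes of 0.5 and 1 on the log2 scale were missed. There the share of false calls exceeded the threshold with the block but not without it. The simulated arrays shared no day effect, so this contrast does not give the error rate of the block calls in these data. Lists took each gene's brightest probe set past the filter and got no list test. Named were all member genes, every list gene that passed, otherwise the 2 largest changes without overlap, and Cd4, Cbfb, Arnt, Bcl6, Ifng, Il4, Cd8a and Foxp3. The members and lists were chosen with earlier results of these data known. Alternatives were quantile normalization, median centring, a pseudocount of 1 or 24, the 60th percentile as filter or none, eBayes without the trend, the day as a block and each array left out; no filter together with the block was added after seeing the data. The number of arrays limits the precision. Plots were made in Python 3.11.15 with matplotlib 3.10.9.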

Additional observations from a re-analysis of the deposited data

How the results depend on the processing

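The count of 144 probe sets called stood at 47 without the variance trend, 56 without the filter, 852 with the day as a replicate block and 296 with the block and no filter, and ran from 105 to 356 with each array left out. The count of 0 lineage factor probe sets was 1 with each array centred on its median, which was Eomes. It was 4 with the replicate block but 0 with the block and no filter. Without wild type array 1 the Eomes change was 1.36, with the array whose header names CBA as the only wild type array. The 10 genes called over all lists became 6 with median centring, 2 without the variance trend, 5 without the filter and 27 with the block, and 5 to 11 with an array left out. Across 14 factor probe sets and their alternatives, 163 values kept direction and side of the threshold, 6 moved past it and 4 turned sign. Those 4 were of Runx1 1422865_at, whose change of 0.01 became -0.01 under quantile normalization, -0.08 with median centring, and, with an array left out, ran from -0.17 to 0.19, below 0 at -0.05 and -0.17 without sanroque array 2 and wild type array 2. The causes were not tested. The low signals of these factors and 2 arrays per genotype limit every value. With the block no other call of a factor probe set changed.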
